A study of Mus musculus with 6 samples.

Results

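Cytosolic ribosomal protein genes were examined in mouse kidney on 2-colour arrays of spotted probes. Members were the probes annotated to a single gene whose symbol is that of a cytosolic ribosomal protein (Rpl or Rps followed by a digit, Rpsa, Rplp0, Rplp1 and Rplp2), without the S6 kinases and pseudogenes. The rule found 150 probes of 60 genes among 15114 single-gene probes of 9107 genes. Of the 60 genes, 22 encode proteins of the small subunit, 33 of the large subunit and 3 of the P-stalk, and 2 are the paralogs Rpl7l1 and Rps27l. A further 30 probes whose annotation lists several genes with a ribosomal protein or its pseudogene among them were left out.

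The kidneys came from male Swiss albino mice 8 to 10 weeks old, 4 per group by the design text. Amodiaquine, an antimalarial 4-aminoquinoline, was given at 120 mg/kg. The antifolate pair Sulfodoxine and Pyrimethamine, SP below, had doses of 300 mg/kg and 15 mg/kg, and another group received amodiaquine and SP at the same doses. Controls received the vehicle, DMSO, and tissue was taken 24 h after dosing. By the labels, 6 arrays set treated against vehicle RNA, with treated RNA in Cy5 on forward arrays and in Cy3 on reverse arrays; the files hold fewer scans, as given below. Whether a group's 4 kidneys were pooled, and whether forward and reverse arrays carried separate RNA extracts, the labels do not say, so any p-value may measure technical spread only.

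A ribosome consists of a small subunit, which reads the mRNA, and a large subunit, which joins amino acids. Its proteins are needed in near-equal amounts, and their mRNAs are among the most abundant of most tissues, the protein-making tubule cells of the kidney included. Many of these mRNAs begin with a cytosine followed by an unbroken run of pyrimidines, the 5′ TOP motif, through which their translation is adjusted to nutrients and growth signals. Ribosomal protein genes also have many processed pseudogenes of near-identical sequence, so a spot can bind cDNA of more than its named gene.

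The start sites of 48 member genes stood in the RefSeq promoter table of GRCm38.p6. They lay on 15 chromosomes, with 9 genes on chromosome 7, the most on any. A run of at least 5 C or T that begins with C, on the strand of the gene and within 5 bases of an annotated start, was present in 24 of the 48 genes (50%). It was present in 21.2% of all 27025 genes of the table. By start site, the shares were 26 of 58 (44.8%) and 18.4%. The 30 bases around the start (15 before it, then 15 from it) are shown for genes that carry the results below, with the run in capitals where there was one. Rps6, Rpl31, Rps18, Rpl12 and Rplp2 have such a run. Rps12 and Rpsa have none that meets the rule; the pyrimidines at the end of the Rps12 window begin more than 5 bases from the annotated start.
Rps6, chr4:86857353-86857382, minus strand: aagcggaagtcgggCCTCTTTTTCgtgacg
Rpl31, chr1:39367836-39367865, plus strand: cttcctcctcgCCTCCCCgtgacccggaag
Rps18, chr17:33955651-33955680, minus strand: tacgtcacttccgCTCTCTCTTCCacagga
Rpl12, chr2:32961697-32961726, plus strand: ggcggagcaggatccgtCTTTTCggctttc
Rplp2, chr7:141447636-141447665, plus strand: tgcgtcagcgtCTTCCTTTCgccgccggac
Rps12, chr10:23787195-23787224, minus strand: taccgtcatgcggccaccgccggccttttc
Rpsa, chr9:120127751-120127780, plus strand: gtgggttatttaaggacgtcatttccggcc
The presence of a run was not matched by brighter spots. The median brightness percentile was 79.3 over the 24 genes with a run and 82.9 over the 24 without.

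Before the values, 3 properties of the files bear on every member. The 6 files hold 4 distinct scans. With each block aligned, 39.3% and 46.1% of foreground values were identical between the SP files, by dye, and 32.7% and 50.3% between the amodiaquine+SP files, against 0.0% between the amodiaquine arrays. Since each repeated scan carries opposite labels, its direction is not settled. SP and amodiaquine+SP are therefore given from the forward file as Cy5 over Cy3, with no test. The spot grid was displaced in part of the 48 blocks. Both dyes were in register in 22 and 27 blocks of the forward and reverse amodiaquine arrays, 35 of the SP forward file and 32 of the amodiaquine+SP forward file, and in 5 and 4 of the reverse files. Gene names, finally, pair with spots only after the blocks are reordered, and that order had been chosen on the brightness of these very probes. Their high rank is thus no finding and has no test. On 103 probes of 59 other genes of high expected level (oxidative phosphorylation, elongation factors, Gapdh, Umod and Gpx3, listed after the data were known), the order gave a mean percentile of 76.4, against at most 58.1 at any of 24 neighbouring offsets. Among kidney markers, the 9 proximal tubule probes had a median percentile of 87.5. Of their 7 genes, 5 had a probe above the 75th percentile, and Aqp1 (72.1) and Gatm (65.1) did not. Of the thick ascending limb, Umod had 95.5 and Slc12a1 had 53.8. For the distal tubule and collecting duct there were 4 probes of Calb1, from 26.8 to 82.9 with a median of 59.1, and the 8 glomerular and endothelial probes had a median of 44.8. Umod and most of the proximal tubule markers were thus bright, and the other nephron markers were not all so. Among markers of other cells, Alas2 of blood stood at 22.8 and Lyz2 of macrophages at 99.8. The pan-leukocyte gene Ptprc was at no more than 63.1 and the T-cell gene Cd3e at 57.5. The liver genes Alb, Apoa1 and Ttr had 76.8, 72.2 and 51.2. Of the adrenal, Star had 53.1 and Cyp11a1 no more than 46.6. The part of these cells in the results was not tested.

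Ribosomal protein probes were among the brightest spots on every scan and in both dyes. Brightness is the percentile of a spot's background-corrected intensity among all spots of the blocks in register in its file and dye. In Cy3 the member medians were 90.7 and 90.8 on the forward and reverse amodiaquine arrays, 87.2 on the SP scan and 89.1 on the amodiaquine+SP scan. In Cy5 they were 86.4, 86.0, 84.0 and 86.2 in the same order. Other named probes had medians between 49.7 and 50.5. Over the 4 scans the member median was 87.6 ± 1.36 (SD, n = 4 scans). The 4 scans thus lay close together. All were far above the level of other probes, which is no finding because the block order had been chosen on this brightness. Between 66.3% and 88.9% of member probes lay above the 75th percentile, depending on scan and dye, against 23.9% to 25.0% of other named probes. Few member spots had a corrected intensity of 0, between 0.93% and 6.09% of them, against 15.6% to 31.9% of all spots.

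**Figure D1:**
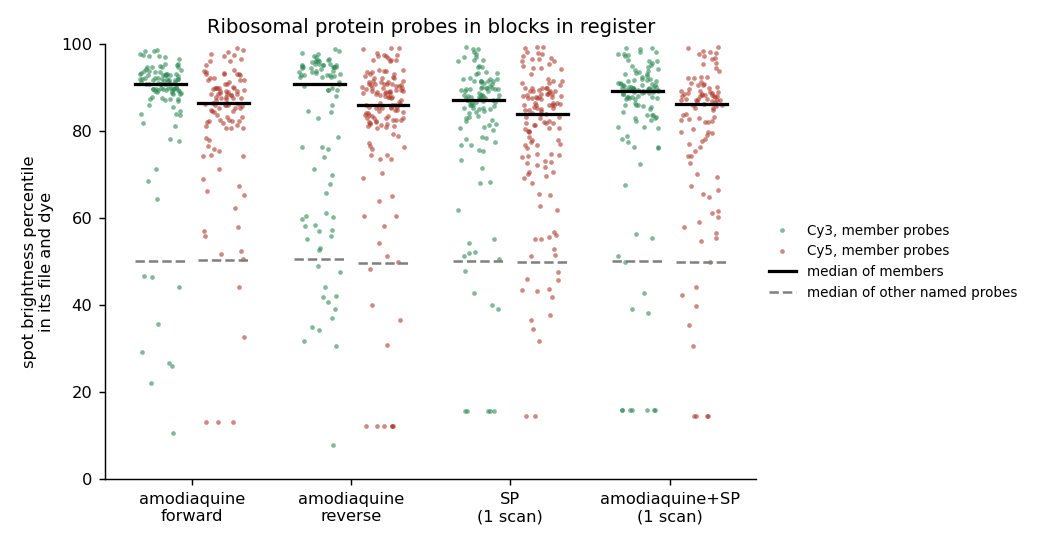
Brightness percentile (vertical axis, 0 to 100) of each ribosomal protein probe in register, by scan and dye; solid bars are member medians and dashed bars the medians of other named probes. Member medians sit between 84.0 and 90.8 and those of other probes near 50. The amodiaquine reverse array has a wider lower tail in Cy3, mostly of probes in blocks up to 24.

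The same member probes tended to rank higher in Cy3 than in Cy5. This held for 56 of 80 probes on the amodiaquine forward array (70.0%, against 45.2% of other named probes) and for 69 of 99 on the amodiaquine+SP scan (69.7%, against 55.0%). On the SP scan it was 60 of 102 (58.8%, against 54.7%). On the amodiaquine reverse array it was 45 of 86 (52.3%, against 47.2%), and 50 of 103 once displaced blocks had been shifted back. There the difference followed block position. Member probes in register in both dyes in blocks 2 to 24 ranked lower in Cy3. Examples are Rps4x in block 6 (30.7 against 87.5 in Cy5) and Rps6 in block 24 (42.1 against 83.8). In blocks 25 to 48 most ranked higher in Cy3, such as Rps18 in block 28 (94.5 against 86.3). The cause was not tested. By the labels, Cy3 held vehicle RNA on the amodiaquine forward array and amodiaquine RNA on the reverse array. The tilt was thus plain on the forward array. On the reverse array the share was within a few points of other probes, but it joined opposite tilts in lower and higher blocks.

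By gene, the mean of a gene's probes in register was taken on each scan. The probes and dyes averaged could therefore differ between scans, and the SD between scans includes such changes. The SD also takes in the dependence on block of the Cy3 ranks of the amodiaquine reverse array. Rps19, of the small subunit head and mutated in Diamond-Blackfan anaemia, was the brightest, at 98.5 and 99.0 on the forward and reverse amodiaquine arrays, 99.3 on the SP scan and 98.9 on the amodiaquine+SP scan. Rpl17, which lines the peptide exit tunnel, followed at 96.4, 96.5, 95.1 and 95.6. These 2 genes differed from each other by more than their SD between scans (98.9 ± 0.34 and 95.9 ± 0.67, n = 4 scans). That SD leaves out the spread between probes: Rps19 has 1 probe, and the 3 of Rpl17 had means of 91.0, 97.7 and 99.0. The brightest Rpl17 probe was thus level with Rps19. Next came Rps20 at 90.8 ± 2.02, Rpl31 at 90.2 ± 0.96 and Rps12 at 90.1 ± 1.53, which do not differ beyond their spread.

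The dimmest genes were of the large subunit, apart from 1 single reading. Rpl27 had 13.1, 34.1, 15.1 and 62.2 in the same order of scans (31.1 ± 22.8). Its 13.1 and 15.1 rest only on readings of intensity 0, and its 34.1 averages such readings with 58.1 from its other probe. Rpl36a had 30.7, 44.3, 31.8 and 44.2 (37.8 ± 7.52). Its intensity was 0 in Cy3 of the forward and in Cy5 of the reverse amodiaquine array. In the other dye this probe was at 50.7 on the forward and 76.3 on the reverse array, so the SD hides a wide gap between dyes. Brightness depends on the probe as well as on the mRNA, so these ranks order spots and not transcripts. Rpl22 (56.0 ± 24.4), Rpl8 (57.9 ± 22.4) and Rpl7a (58.9 ± 20.4) had means above the middle but moved widely between scans. Rpl8, a protein close to the catalytic centre, ran from 37.6 on the amodiaquine+SP scan to 87.3 on the amodiaquine forward array. The 37.6 averages a Cy3 reading of intensity 0, at percentile 16.0, with a Cy5 reading at 59.2. Rps25 had a single reading in register, at 12.3 in Cy5 of the amodiaquine reverse array, where its intensity was 0. In the reverse amodiaquine+SP file its Cy3 reading was at 88.6, so its level is not settled.

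Between these ends the genes formed a nearly continuous series. Of 59 genes with readings on at least 2 scans, 43 had a mean above the 75th percentile and 2 a mean below the 50th. The SD of the means between genes was 12.5 percentile points, the median SD of a gene between scans 6.77. The median gap between neighbours in the order was 0.48, and only 2 of 58 neighbouring pairs were further apart than the larger SD of the pair. Except at the top, the order of neighbouring genes is therefore within the spread between scans.

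**Figure D2:**
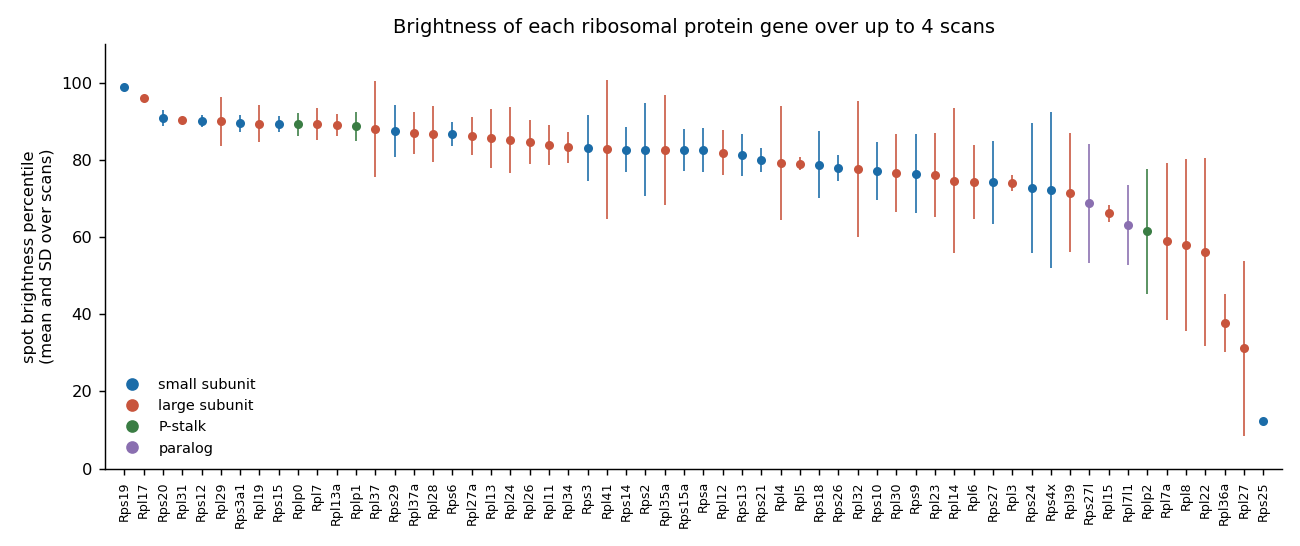
Mean brightness percentile (vertical axis) of each of the 60 ribosomal protein genes, in falling order, with the SD over up to 4 scans as bars; colours give the subunit, and Rps25 has a single reading and no bar. Rps19 and Rpl17 stand above the rest, and most neighbours overlap within their bars.

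Both subunits had similar medians, as a description without a test. The median over probes was 84.1 for the small subunit (18 of 22 genes above the 75th percentile) and 83.2 for the large subunit (23 of 33). In the P-stalk, which binds the elongation factors, Rplp0 (89.2 ± 2.94) and Rplp1 (88.7 ± 3.67, both n = 4 scans) were bright and Rplp2 was lower at 61.5 ± 16.2 on 3 scans. The paralogs had lower means too, with 63.0 ± 10.4 for Rpl7l1 on 4 scans and 68.7 ± 15.3 for Rps27l on 3. These depend on the probe and reading. The probes of Rpl7l1 stood at 83.1, 51.8 and 37.2, the last on Cy5 readings only. Rps27l has 1 probe, at 52.5 in Cy5 of the amodiaquine forward array and at 84.3 and 81.7 in Cy3 and Cy5 of the reverse array. Fau, which encodes a ribosomal protein fused to a ubiquitin-like protein and falls outside the symbol rule, had 1 probe, at 89.5. The 62 probes of mitochondrial ribosomal proteins, which build the separate ribosome of that organelle, had a median of 52.9 (6 of 52 genes above the 75th percentile). Translation factors had 55.1 (6 of 54), ribosome biogenesis factors 43.8 (4 of 34) and all named genes 44.7 (11.5%).

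Several probes of 1 gene show how far spots of the same name agree. On the 4 scans the median gap between 2 probes of the same member gene was 4.87, 10.7, 8.18 and 7.5 percentile points (amodiaquine forward, amodiaquine reverse, SP, amodiaquine+SP). Between probes of different member genes it was 7.11, 12.7, 11.9 and 9.52. Probes of the same gene were closer on each scan, by a few points. Both gaps of the amodiaquine reverse array include the dependence of its Cy3 ranks on block. With each probe's percentile first averaged over the scans, the median gap between probes was 7.03 over 191 pairs of 41 member genes, and 17.8 over 10319 pairs of other genes. Member probes are crowded at the top of the scale and other probes are spread over all of it, and the part of this in the gaps was not tested.

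Of the 41 genes, Rpl37a (85.8 and 86.4), Rpl27a (85.7 and 86.4) and the P-stalk gene Rplp1 (88.1, 88.3 and 89.5) had the closest probes. Rpl4, a large-subunit protein of the exit tunnel, had the widest gap, with probes at 12.3, 80.9 and 88.8. Its low value is a single reading, of intensity 0, in the block and dye that also held the low Rps25 reading. Rpl23 had 28.0, 80.8 and 90.8, and Rpl15 had 32.4, 77.9 and 84.4. On these means 1 probe of 3 stood apart in each of these 3 genes, and the other 2 lay closer together. The low Rpl23 value rests on Cy5 readings only, at 12.3 (intensity 0) on the amodiaquine reverse array and 43.8 on the SP scan. With displaced blocks shifted back, this probe had 85.1 in Cy3 and 13.5 in Cy5 on the amodiaquine forward array. Its Cy3 readings were then 57.5 on the SP scan and 86.4 on the amodiaquine+SP scan, so its level is not settled.

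The genes with the most probes were intermediate. The 9 probes of Rpl3, a core protein of the catalytic centre, ran from 59.5 to 85.8 with a median of 74.1. The 8 of Rpl7 ran from 71.5 to 97.9 (median 89.4), and 5 of the 6 of Rpl5, a 5S rRNA binder that also restrains Mdm2, from 85.5 to 89.8, with the sixth at 40.5. The 5 probes of Rpsa, the laminin receptor protein, ran from 78.5 to 86.9 and the 5 of Rps15 from 75.9 to 96.7. Among genes with 4 probes, Rps3a1 ran from 84.7 to 91.9, Rps6 from 80.4 to 90.5, Rpl31 from 83.0 to 95.2 and Rps10 from 70.2 to 90.7. The genes with 3 probes were spread over gaps from 1.4 for Rplp1 to 76.6 for Rpl4. Rpl26, Rps15a, Rpl12 and Rpl17 had gaps of 5.0, 5.9, 7.3 and 8.0. Rps21, Rpl29, Rpl11, Rps18 and Rps3 had 13.6, 15.4, 18.4, 19.6 and 20.7. Rps26, Rps14, Rpl6, Rps24 and the paralog Rpl7l1 had 25.5, 26.7, 30.3, 40.0 and 45.9.

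**Figure D3:**
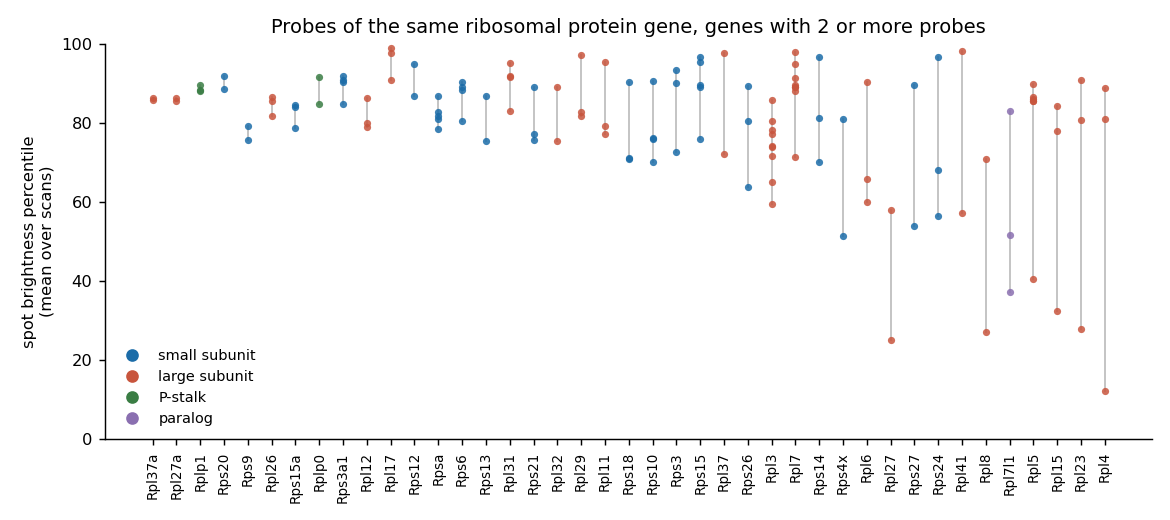
Brightness percentile (vertical axis, mean over scans) of each probe of the 41 ribosomal protein genes with 2 or more probes in register, ordered by the gap between the lowest and highest probe; colours give the subunit. Gaps run from 0.6 for Rpl37a to 76.6 for Rpl4, and the 3 widest gaps, of Rpl15, Rpl23 and Rpl4, come from 1 low probe each. For Rpl23 and Rpl4 the low probe rests on few readings, in Cy5 only.

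No ribosomal protein probe passed the test on the amodiaquine arrays, and the members' ratios differed in sign between the arrays more often than not. A ratio was kept where both dyes had a signal-to-noise ratio of at least 2 on both arrays in blocks in register. This left 746 probes, of which limma called 0 (0%) at an adjusted p under 0.05, and 0 had an unadjusted p under 0.05. With 2 arrays the fit has 1 residual degree of freedom, and the number of arrays limits its precision. Among the 746 were 16 member probes of 15 genes, of the 57 member probes in register on both arrays. On single arrays, 43 of 80 in register passed on the forward array (53.8%, against 13.2% of named probes) and 38 of 86 on the reverse array (44.2%, against 9.98%). Of the 16, 7 passed only over a Cy3 background recorded as 0.

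Turned so that positive means higher with amodiaquine by the labels, the 16 member ratios had a median log2 of 0.10 and ran from -0.26 to 0.49, and 10 lay above 0. The median of all 746 was 0.04. The member median was -0.29 on the forward array and 0.50 on the reverse array, so the arrays lay on opposite sides of 0. Only 5 of the 16 had the same sign on both arrays (31.3%; over all probes 18.1%). None was 1.5-fold higher on both arrays (0% of all probes) and none 1.5-fold lower (0.134%).

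Rps6, the small-subunit protein phosphorylated by the S6 kinases, had the highest turned mean. Its block 43 probe had a corrected intensity of 6314 in Cy5 and 1617 in Cy3 on the forward array, and 7051 in Cy5 and 5008 in Cy3 on the reverse array. After loess the turned log2 ratios were 0.55 and 0.42, a mean of 0.49 ± 0.47 (SE) (limma, adjusted p = 0.9999, as for each of the 16). The next were Rpl32 at 0.42 (0.27 forward, 0.58 reverse, SE 0.48) and Rpl19 at 0.41 (0.11 forward, 0.72 reverse, SE 0.50), both large-subunit genes. All 3 probes were above 0 on both arrays, all 3 rested on a Cy3 background of 0 on the forward array, and for Rpl32 and Rpl19 the SE was larger than the mean, for Rps6 nearly as large.

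Rpl31, a protein at the exit tunnel, had 0.27 with 0.26 and 0.29 on the arrays. The block 43 probe of Rps15 was below 0 on both arrays, with -0.37 and -0.07 (mean -0.22, SE 0.48). The other probe of Rps15, in block 25, had -0.40 and 1.03 (mean 0.31), so the 2 probes of this gene lay on opposite sides of 0. Rps12 had the lowest mean, -0.26, from -1.41 and 0.88 (SE 0.76), and Rpl11, which with Rpl5 restrains Mdm2, had -0.14 from -1.29 and 1.01 (SE 0.76). Rpsa showed the widest disagreement, with a mean of -0.22 from -2.31 on the forward and 1.88 on the reverse array.

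The remaining members had means between those of Rps18 and Rpl17. Rps18 had 0.22 (-0.91 and 1.35), Rps20 0.14 (-0.14 and 0.42), Rps3a1 0.14 (-0.54 and 0.81) and Rps26 0.06 (-0.24 and 0.36). Rpl12 had 0.01 (-0.34 and 0.35), Rps24 -0.05 (0.04 and -0.15) and Rpl17 -0.06 (-0.24 and 0.12). For 11 of the 16 probes the turned ratio changed sign between the arrays, so that the normalized Cy5 over Cy3 ratio lay on the same side of 0 on both.

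Read as Cy5 over Cy3, without turning, the arrays resembled each other. Across the 746 probes Pearson's r between the 2 arrays was 0.865, given as a description, since probes share scans and blocks and are not independent. Of the 16 members, 14 had a mean below 0, toward Cy3, and 2 above, with a median of -0.30 against -0.00 over all probes. Toward Cy3 on both arrays by 1.5-fold were 4 members, Rpsa, Rpl11, Rps12 and Rps18 (19.7% of all probes were), and toward Cy5 none (11% of all probes). Rpsa read 6297 in Cy3 and 1626 in Cy5 on the forward array, and 6202 and 2161 on the reverse array, nearly the same values although the labels put amodiaquine RNA in opposite dyes. Whether this came from the dyes or from a reverse array that was not swapped cannot be told apart.

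**Figure D4:**
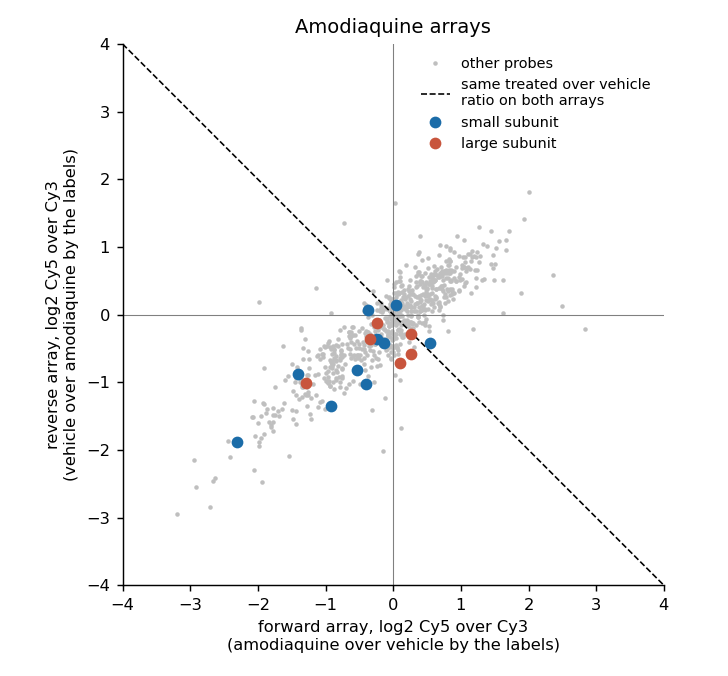
Log2 Cy5 over Cy3 on the amodiaquine forward array (horizontal) and reverse array (vertical) for 746 probes, with the 16 ribosomal protein probes coloured by subunit. A probe with the same response on both labelled arrays would lie on the dashed line; most points, members included, lie along the opposite diagonal, and 14 of 16 members have a mean toward Cy3.

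Larger sets of members, each read on a single array, showed the same tilt. On the forward array 31 of 43 member probes lay toward Cy3, with a median of -0.28 (all 1455 probes: 652 toward Cy3, median 0.06). On the reverse array 29 of 38 did, with a median of -0.39 (all 1366 probes: 718, median -0.04). The 2 probes of Rplp1 measured on the forward array had -1.39 and -1.61, and its 1 probe on the reverse array had -0.68. Once displaced blocks had been shifted back, 26 member probes of 20 genes entered the paired set, with a turned median of 0.06, a range from -0.29 to 0.49, and 0 calls among 1128 probes.

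The SP scan, at 300 mg/kg and 15 mg/kg, has no replicate, so its values have no test. Over 30 member probes of 22 genes the median log2 Cy5 over Cy3 was -0.07, against 0.07 over all 1624 probes, and 17 lay toward Cy3. Members were less scattered than all probes that passed the filter, with an SD of 0.36 against 0.51, though the sets were not matched on brightness. Past 1.5-fold were 3 of the 30 (10.0%, all probes 20.8%), of which 1 lay toward Cy5 (5.48% of all probes) and 2 toward Cy3 (15.3%). Without the filter on dim probes the SD was 0.51 against 0.60, and 28.4% of members against 24.8% of all probes were past 1.5-fold.

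Rplp1 was the lowest on this scan. Its 3 probes, in blocks 4, 6 and 8, read 3676, 2955 and 2487 in Cy3 and 1642, 1951 and 1724 in Cy5, with log2 ratios of -0.95, -0.46 and -0.41. All 3 lay toward Cy3, as did those measured on the amodiaquine arrays. Rpl27a (-0.65), the block 9 probe of Rps3a1 (-0.51) and the block 8 probe of Rpl5 (-0.43) were next lowest. At the other end were 2 probes of Rpl31, at 0.78 in block 2 and 0.45 in block 47, with Rps15a (0.48), Rpl23 (0.32) and Rpl29 (0.26).

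On the amodiaquine+SP scan, which is also single, 34 member probes of 24 genes had a median of -0.10, against 0.02 over 1523 probes, and an SD of 0.30 against 0.59. Again 3 were past 1.5-fold (8.82%, all probes 18.3%), 2 toward Cy5 (7.49%) and 1 toward Cy3 (10.8%). Without the filter on dim probes the order turned: the SD was 0.34 for members against 0.31, and 7.07% against 3.13% were past 1.5-fold. Rpl31 was the highest here as well. Its block 2 probe read 6024 in Cy3 and 13796 in Cy5, a log2 ratio of 1.08. Its probes in blocks 45 and 47 had 0.19 and 0.05. The others at the top were Rpl7 (0.65), Rps3 (0.15) and Rps15 (0.11). The lowest were Rps29, a zinc-binding small-subunit protein (-0.68), Rplp0 (-0.49), 2 probes of Rps3a1 (-0.44 and -0.28) and Rpl17 (-0.30). The other Rplp0 probe had 0.05, so the P-stalk did not lie on 1 side here.

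**Figure D5:**
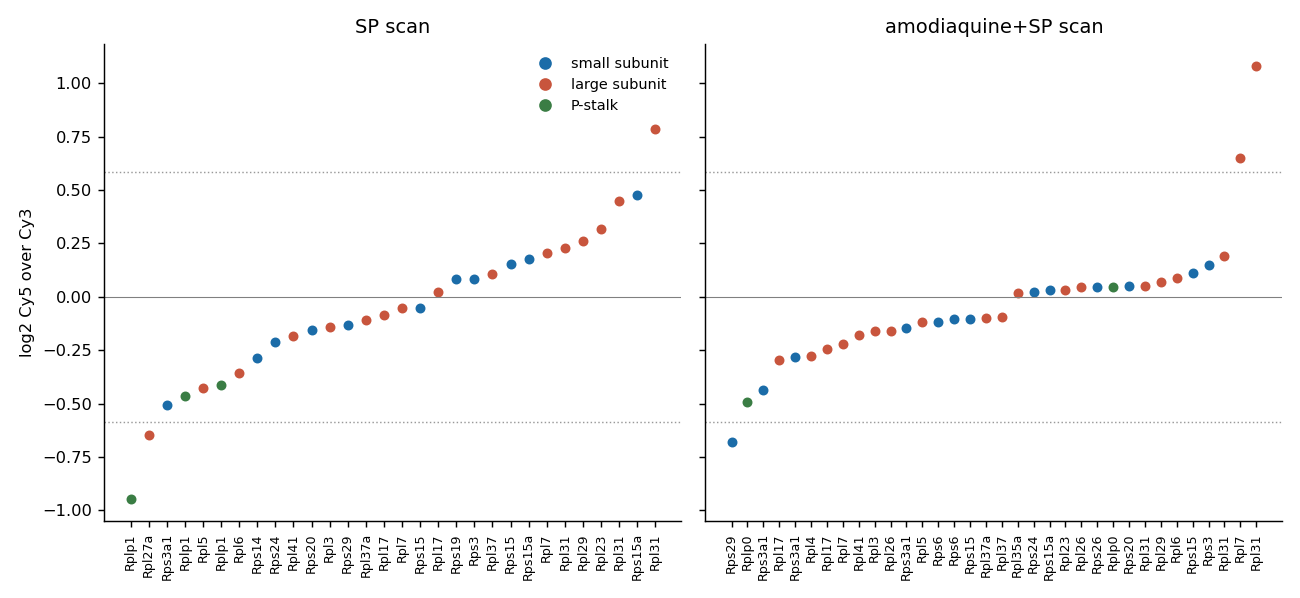
Log2 Cy5 over Cy3 of each ribosomal protein probe measured in both dyes (vertical axis), in rising order, on the SP scan (left, 30 probes) and the amodiaquine+SP scan (right, 34 probes); dotted lines mark 1.5-fold and a gene name is repeated for each of its probes. Most members lie inside the dotted lines, the Rpl31 probe of block 2 is the highest on both scans, and 3 Rplp1 probes are low on the SP scan.

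Of 18 member probes measured on both single scans, 12 had the same sign (66.7%, against 79.2% of all 1068 probes measured on both). With displaced blocks shifted back, 7 member probes were measured on all 4 scans, and 3 of them kept 1 sign (42.9%, against 61.2% of 556 probes). The Rpl31 probe of block 45 lay toward Cy5 on each of them, with 0.28 and 0.46 on the forward and reverse amodiaquine arrays, 0.23 on the SP scan and 0.19 on the amodiaquine+SP scan. The block 47 probe of this gene did too, with 0.82, 0.59, 0.45 and 0.05, while the block 2 probe had 0.27, -0.29, 0.79 and 1.08. Rpl17 lay toward Cy3 on each, with -0.24, -0.12, -0.09 and -0.30. The other 3 changed sign. Rpl7 had -0.61, -0.06, 0.21 and 0.65, Rps24 had 0.04, 0.15, -0.21 and 0.02, and Rpl37 had 0.18, 0.08, 0.11 and -0.09. Over the 556 probes, r between scans ran from 0.452 to 0.712, again as a description of probes that share their blocks.

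Probes of 1 member gene did not share their ratio more closely than probes of different members on every scan. The median gap in log2 ratio was 0.48 within a gene and 0.55 between genes on the amodiaquine forward array, 0.28 and 0.34 on the SP scan, but 0.74 and 0.52 on the amodiaquine reverse array and 0.21 and 0.20 on the amodiaquine+SP scan. These rest on 10 to 13 pairs within genes per scan.

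Few other genes of translation could be read in the amodiaquine pair. Of the 12 translation factor probes tested (6 genes), 2 lay above 0 and 10 below, with a median of -0.08 and 0 called. Eif4g2, a scaffold of translation initiation, had -0.32 (-0.29 and -0.35), Eif3a -0.31 (-0.44 and -0.18), and Eef1a1, the elongation factor that delivers tRNAs, -0.31 (-1.93 and 1.30). Among 4 mitochondrial ribosomal protein probes the median was 0.08, with Mrpl30 at 0.19, Mrpl20 at 0.16 and Mrpl24 at -0.04. The biogenesis factor Rrp9 had 0.05. Limma called 0 probes of these lists. In whole kidney, fewer cells of a type and less RNA per cell cannot be told apart in any of these ratios.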

How the data were processed

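Kidney RNA (25 µg per labelling) was deposited as 6 array files, which hold 4 distinct scans. Per the labels and design text, scans were made with ImageQuant 5.0 and spots measured in ArrayVision 8.0. The deposited intensity values are foreground, local background and background-corrected signal for each spot in either dye, on a linear scale. The deposited signal-to-noise ratio is the authors'. The authors' processed values are log2 ratios, LOWESS-normalized in Avadis 4 per the design text, with medians from -0.0684 to 0.1145; their sign is turned on reverse arrays and how they were centred is not stated. They served as an alternative.

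Each block was aligned with the other scans by its best whole-row and whole-column shift (up to 3). It was in register at no shift with a rank correlation of at least 0.4 and a lead of 0.1. Background was corrected by normexp (offset 50) and ratios were normalized by loess within blocks in limma 3.58.1 (R 4.3.3). The amodiaquine pair was fitted with lmFit and eBayes, with Benjamini-Hochberg adjustment over 746 probes. The fit was also run on simulated ratios with independent noise on each array. The real arrays resembled each other without turning, so the simulation does not bear on the results of this pair. The 58 spots of the SP forward file that lack a Cy5 background were left out. Names came from the array's platform table, updated through RefSeq (GRCm38.p6) for 14956 of 15114 probes. Percentiles used Python 3.11.15 with scipy 1.17.1.

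Members and lists were chosen with earlier results of these data known. Named were all members of the amodiaquine fit, the 5 brightest and 5 dimmest genes, genes with 3 or more probes and the 3 widest and narrowest gaps, the 5 highest and lowest ratios of a single scan, and the 3 genes of smallest p of other lists. Genes with the most probes, and Rpl31, Rplp1 and Rps25 across scans, were followed further after their values were seen. Alternatives were names by spot number, all blocks, shifted blocks, other backgrounds, whole-array loess, other filters, the authors' values and each array left out.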

Additional observations from a re-analysis of the deposited data

How the results depend on the processing

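The median brightness percentile of ribosomal protein probes, 87.6, moved to 84.2 with all 48 blocks and to 55.2 with names by spot number, and the gap between probes of a gene, 7.81 as the mean of the 4 scans' medians, to 14.5 and 30.0. Names by spot number also moved the member median log2 ratio from -0.07 to 0.164 on the SP scan and from -0.10 to 0.119 on the amodiaquine+SP scan. That alternative puts the member names on other spots, with 9 and 10 probes on these scans, so its values are not those of the same probes. Its lower brightness is no finding either, because the block order had been chosen on the brightness of the members. The cause of the moves with all 48 blocks was not tested. The amodiaquine median, 0.10, ran from -0.292 to 0.502 with 1 array left out, with no test, and from -0.051 to 0.162 under the other alternatives that turn the arrays; not turned it was -0.304. Limma made 0 calls under all 10 alternatives that could be fitted, with 0 to 43 probes at an unadjusted p under 0.05. A fit among these takes all 6 files and so counts each repeated scan as separate arrays. Of 153 values of single members under these alternatives, 13 changed sign, and the cause was not tested. All 13 came from the authors' values, whole-array loess and background subtraction. The other alternatives among the 153 left a member's ratio the same or nearly so, so the 153 overstate how stable the signs were. The values with 1 array left out are not among them, and only 5 of the 16 members had the same sign on both arrays. With the authors' values Rpl31 (block 2) had -0.402, Rps24 0.059, Rpl17 0.08, Rps12 0.218, Rpl11 0.116 and Rps15 (block 43) 0.047. With whole-array loess Rpl31 had -0.658, Rps26 -0.029, Rpl12 -0.072 and Rps12 0.093, and with background subtracted Rps26 had -0.066, Rpl12 -0.128 and Rps20 -0.058. Treated and vehicle RNA share each array, so each ratio is already paired within its array. No further pairing between arrays was used, and no fit compares treatments across arrays. The replicate numbers only name forward and reverse files. Probes dim in either dye were not measured, so a member near background in 1 RNA could not enter a ratio.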
